A study of Mus musculus with 4 samples.

Results

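Naive T cells circulate in a resting state that is held by a small set of transcription factors and shown by the receptors that let the cells enter and leave lymphoid organs. The genes described here are 9 genes of that state, chosen by symbol: Klf2, S1pr1, Tcf7, Lef1, Foxo1, Foxp1, Bach2, Satb1 and Ly6c1. All 9 were among the 34745 gene rows of the deposited table, and all 9 passed the filter on low counts. They were measured by RNA sequencing in 4 libraries of T helper 17 (Th17) cultures, made from naive CD4+ T cells of C57BL/6 mouse spleen and collected on day 3 of polarization. The groups were wild type (WT, replicates 13 and 15) and Setd2-CD4 cre (replicates 22 and 24). Setd2 encodes the enzyme that trimethylates histone H3 at lysine 36, and Cre driven by Cd4 sequences acts in the T lineage from the thymus onward. The sources used here do not give the Setd2 allele, the age or sex of the mice, any pooling of animals or any sorting after culture.

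In resting T cells the forkhead factor FOXO1 sustains Klf2. KLF2 in turn drives S1pr1, the receptor that draws cells toward sphingosine 1-phosphate (S1P) and so out of lymph nodes. Antigen receptor and PI3K signaling turn this axis down. TCF-1 (Tcf7) and LEF1 are sister factors of the TCF/LEF family that keep T cell identity and the capacity for self-renewal, while FOXP1 and BACH2 restrain activation and effector differentiation, and SATB1 organizes chromatin in developing and resting T cells. Ly6c1 encodes a small membrane-anchored protein of the Ly6 family that is found on subsets of T cells, monocytes and endothelium.

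Of the 9 genes, Klf2, Ly6c1 and Lef1 fell in Setd2-CD4 cre cultures, by 3.39-fold, 3.22-fold and 1.49-fold, and none rose. S1pr1 and Tcf7 lay lower without passing the test, Foxp1 and Bach2 lay higher without passing it, and Foxo1 and Satb1 had nearly equal means. Thus 3 of 9 were called by edgeR's quasi-likelihood test at a Benjamini-Hochberg adjusted p of 0.05, where 30.7% of the 12927 genes tested were called in either direction. For falls alone the 3 of 9 stand beside 14.5% of all genes, and for rises the 0 of 9 stand beside 16.2%. DESeq2 and limma-voom also called none higher, and at an unadjusted p under 0.05 edgeR had 2, Foxp1 and Bach2. The share called in either direction is thus close to the background. Klf2 and Ly6c1 fell by at least 2-fold, 2 of 9 beside 5.52% of all genes, and 1.85% of tested genes had a log2 fold change as low as that of Klf2 or lower. The 9 genes were chosen with earlier results of these data known, so no enrichment was read from these shares. Rises made up 52.7% of all calls with TMM factors, 37.4% with upper-quartile factors and 32.9% with library totals. The median log2 fold change of the 9 genes was -0.16, against -0.01 over all genes tested.

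The sequence just upstream of the genes that fell most is shown because the pair differ in it. Klf2 starts in CpG-rich sequence, with 28 CpG pairs in the 221 bases before its annotated start, and Ly6c1 starts in CpG-poor sequence, with 1 in 250 bases. Both stretches are from RefSeq (GRCm38.p6), 5′ to 3′ on the strand of the gene, Klf2 on the plus strand at chr8:72318812-72319032 and Ly6c1 on the minus strand at chr15:75048838-75049087. Capitals mark matches to 4 motifs: FOXO (TGTTTAC or GTAAACA), KLF (CCNCNCCC or GGGNGNGG), TCF/LEF (CTTTGAA or TTCAAAG) and MEF2, by name.
Klf2: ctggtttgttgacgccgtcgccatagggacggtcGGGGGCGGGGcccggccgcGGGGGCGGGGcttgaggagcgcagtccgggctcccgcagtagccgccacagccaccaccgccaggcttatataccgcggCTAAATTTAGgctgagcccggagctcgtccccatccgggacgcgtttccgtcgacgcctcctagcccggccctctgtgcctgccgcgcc
Ly6c1: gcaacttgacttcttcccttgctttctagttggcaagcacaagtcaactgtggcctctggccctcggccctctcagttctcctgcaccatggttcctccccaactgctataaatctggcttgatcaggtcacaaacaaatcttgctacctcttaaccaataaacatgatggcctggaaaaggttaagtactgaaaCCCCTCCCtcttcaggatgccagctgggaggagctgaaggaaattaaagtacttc

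In Klf2 the capitals are 2 G-rich runs, which hold 4 overlapping KLF matches, and 1 MEF2 match. In Ly6c1 they are 1 KLF match. Over all 32851 promoter windows of 300 bases in the table (250 before and 50 after a start), a KLF match was present in 49.5%, a MEF2 match in 3.19%, a FOXO match in 3.65% and a TCF/LEF match in 5.14%. Of the 9 genes, 8 had windows, 19 in all. A KLF match was present in 16 of these windows. Some windows of the same gene overlap, as in Lef1 and Satb1, so the 19 are not independent. No enrichment was read from them. FOXO (1 Tcf7 window), TCF/LEF (1 Foxp1 window) and MEF2 (the Klf2 window) matched once each. A match describes letters on either strand and is not evidence of binding, and KLF matches may overlap.

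The libraries held 11007343 to 12518415 counts, with 15882 to 16307 genes detected and 4.41 to 5.31% of counts on mitochondrially encoded genes. In CPM (counts per 1000000, scaled with TMM factors), Setd2 was at 184 and 176 in WT against 144 and 153 in Setd2-CD4 cre (log2 fold change -0.28, SE 0.10, edgeR adjusted p = 0.0748), a sum over the whole gene that does not show whether exons were removed. Setd2 was called lower under 6 of the 14 settings, among them upper-quartile factors (-0.39, adjusted p = 0.0242) and library totals (-0.43, 0.0216). Those factors and totals move the median of all genes to -0.12 and -0.16. Without Setd2-CD4 cre 24 the log2 fold change of Setd2 was -0.32. T cell markers were abundant in every library (Cd4 at 940.2 to 1139 CPM). Of the 8 listed, 4 fell, Cd3e, Cd3d, Cd3g and Cd5, and Cd28 rose; without WT 13 or without WT 15 the calls of Cd3e, Cd3d, Cd5 and Cd28 were lost (adjusted p of 0.0655 to 0.271). B cell markers were higher in Setd2-CD4 cre: 10 of 13 tested rose and none fell (0 also for edgeR at an unadjusted p under 0.05 and for DESeq2), and the summed level of all 14 was 266 and 226 CPM in WT against 789 and 543 CPM in replicates 22 and 24. Klf2, Foxo1, Foxp1 and Bach2 are also expressed by B cells, and in bulk RNA fewer cells of a type and less RNA per cell cannot be told apart. Other lists moved too. Of the gamma-delta T cell markers 3 of 6 tested rose, Blk (a kinase gene also expressed by B cells), 5830411N06Rik and Cd163l1, and the summed level of all 7 was 20.6 and 16.8 CPM in WT against 75.8 and 71.3 CPM in Setd2-CD4 cre, while the constant region gene Trdc was not called (4.88 and 4.19 against 6.62 and 2.93 CPM). Of the dendritic cell markers 3 of 5 tested rose, Flt3, H2-Ab1 and Batf3, with sums of 53.8 and 54.8 CPM against 109 and 96.5 CPM, and of the defining markers Xcr1, Clec9a and Siglech had 0 counts in both Setd2-CD4 cre libraries. Of 6 regulatory T cell markers 2 rose, Ikzf2 and Ctla4, and 2 fell, Gpr83 (from 15.2 and 11.9 CPM to 0.487 and 1.10 CPM) and Il2ra. The 6 summed to 1929 and 2118 CPM against 1887 and 2021 CPM, mostly Ctla4 and Il2ra. The defining marker Foxp3 was lower in both Setd2-CD4 cre libraries but was not called (17.9 and 17.6 against 0.974 and 11.8 CPM). Replicates 22 and 24 differed widely for Foxp3, which stood at -0.58 with replicate 22 left out and at -4.17 with replicate 24 left out. Over the 14 settings the number higher was 8 to 11 for B cell, 2 to 3 for gamma-delta T cell, 2 to 4 for dendritic cell and 0 to 2 for regulatory T cell markers. Ikzf2, Ctla4 and Batf3 were among the calls lost without WT 13 and without WT 15, and Cd163l1 was lost without WT 15. The part of any of these cell types in the results below was not tested.

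**Figure D1:**
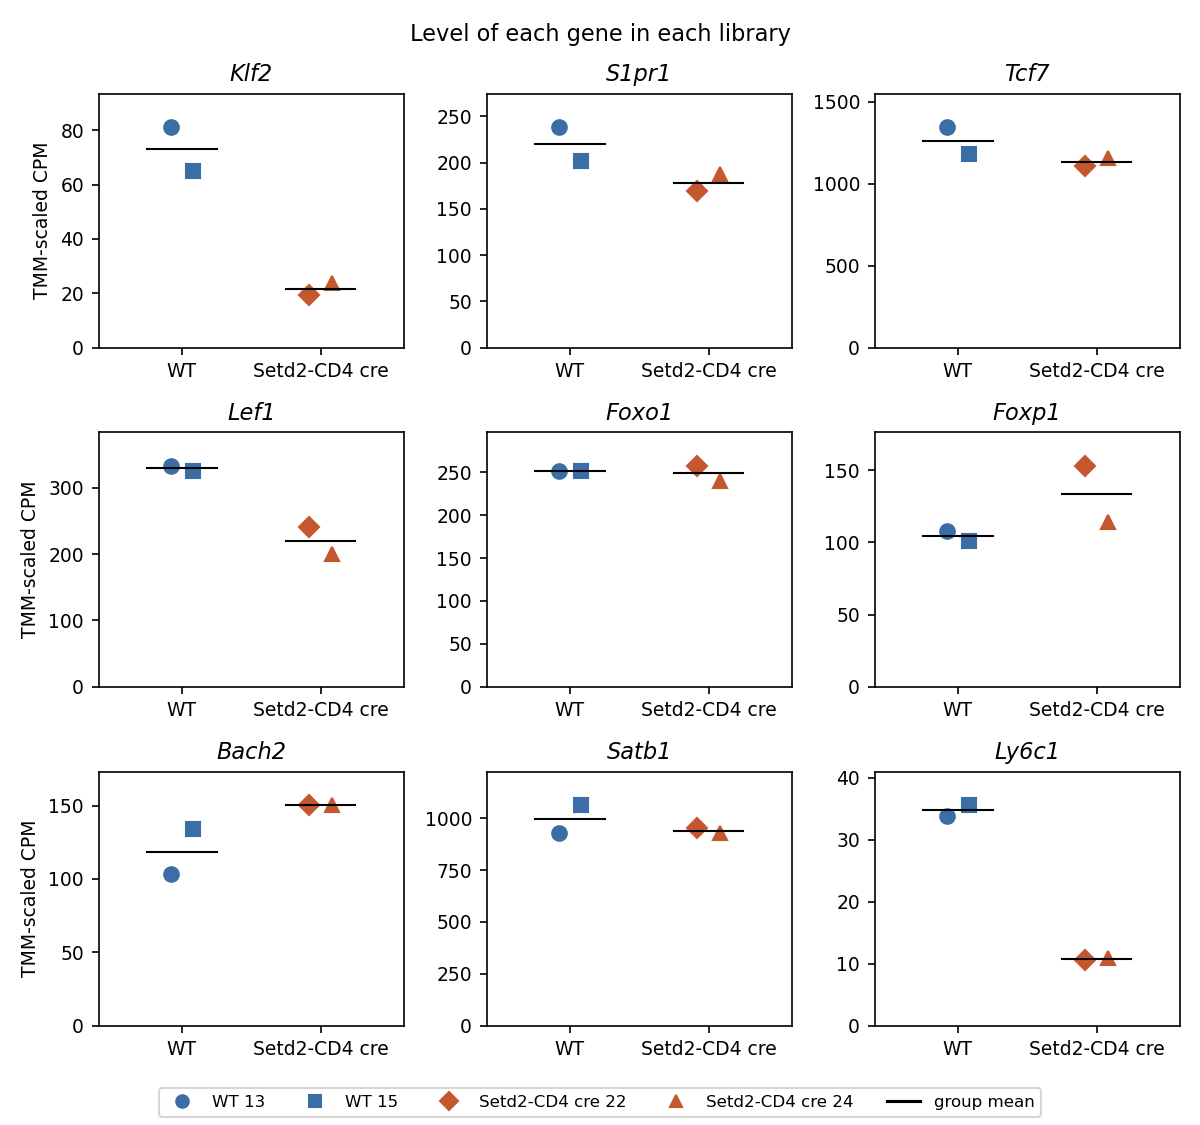
Level of each of the 9 genes in each library, as TMM-scaled CPM on the y axis (each axis starts at 0), with WT libraries in blue, Setd2-CD4 cre libraries in orange and a bar at the mean of each genotype (n = 2). The gap between genotypes is wide for Klf2 and Ly6c1, narrower for Lef1, and absent for Foxo1 and Satb1, whose libraries overlap.

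Klf2 (ENSMUSG00000055148, chromosome 8, 72319033 to 72321656, GRCm38), the trafficking and quiescence factor, gave 1066 and 851 counts in the WT libraries against 198 and 259 in the Setd2-CD4 cre libraries. Scaled, these were 81.3 and 64.8 CPM against 19.3 and 23.7 CPM. Both WT libraries lay well above both Setd2-CD4 cre libraries, and the gap exceeded the spread within either genotype. Genotype means were 73.0 ± 11.7 against 21.5 ± 3.15 CPM (SD, n = 2 each), which gave a log2 fold change of -1.76 (SE 0.17, 95% interval -2.15 to -1.37, edgeR adjusted p = 0.00106). The call held under all 14 alternative settings, which gave log2 fold changes of -1.92 to -1.59 and adjusted p-values up to 0.00528.

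S1pr1 (ENSMUSG00000045092, chromosome 3, 115710433 to 115715072), the S1P receptor gene downstream of KLF2, measured 239 and 201 CPM in the WT libraries against 169 and 188 CPM in the Setd2-CD4 cre libraries. The genotypes did not overlap, but the lower WT library and the higher Setd2-CD4 cre library were close. The log2 fold change was -0.30 (SE 0.12, 95% interval -0.59 to -0.02), short of the threshold (edgeR adjusted p = 0.0969). Upper-quartile factors (-0.41, adjusted p = 0.0348) and library totals (-0.45, 0.0314) called it, and they move the median of all genes to -0.12 and -0.16. Relative to that median S1pr1 was at -0.29 with TMM factors and at -0.29 under both. It was also called with cyclic loess scaling (-0.47, limma-voom adjusted p = 0.0293), by limma-trend on log2(FPKM + 1) (-0.44, 0.0441) and log2(FPKM + 0.1) (-0.45, 0.0438), and without Setd2-CD4 cre 24 (-0.38, 0.0206). Without WT 13 it was -0.17 (adjusted p = 0.562).

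The ratio of Klf2 to S1pr1 counts within a library does not depend on scaling. It was 0.340 and 0.322 for WT against 0.114 and 0.126 for Setd2-CD4 cre, so the replicates were close and the genotypes far apart. The log2 ratio of the means was -1.46. No test of the ratio is given, since the smallest two-sided p of an exact permutation of 2 against 2 libraries is 0.333.

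Foxo1 (ENSMUSG00000044167, chromosome 3, 52268336 to 52353221), which encodes the factor upstream of Klf2, measured 252 and 251 CPM in the WT libraries against 258 and 240.3 CPM in the Setd2-CD4 cre libraries. The genotypes overlapped. The log2 fold change was -0.01 (SE 0.10, edgeR adjusted p = 0.924), with a 95% interval of -0.25 to 0.22. Its sign varied with the setting, from -0.20 to 0.04, and no setting called it. FOXO1 is controlled largely by phosphorylation and export from the nucleus, which RNA levels do not show.

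Lef1 (ENSMUSG00000027985, chromosome 3, 131110471 to 131224356) measured 334 and 325 CPM in the WT libraries against 241 and 199.9 CPM in the Setd2-CD4 cre libraries. Both Setd2-CD4 cre libraries were lower than both WT libraries. Genotype means were 329 ± 5.77 against 220.4 ± 29.0 CPM (SD, n = 2 each), which gave a log2 fold change of -0.58 (SE 0.12, 95% interval -0.86 to -0.30, edgeR adjusted p = 0.0110). The call was lost without WT 13 (-0.56) and without WT 15 (-0.60), fits in which fewer of all tested genes were called. Over the 14 settings the value ran from -0.78 with cyclic loess scaling to -0.45 without Setd2-CD4 cre 24.

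Tcf7 (ENSMUSG00000000782, chromosome 11, 52252371 to 52283014), the sister factor, was the most abundant of the 9 genes and differed less between genotype means than its WT libraries did from each other. The WT libraries held 1348 and 1179 CPM, and the Setd2-CD4 cre libraries held 1110 and 1159 CPM. The lower WT library and the higher Setd2-CD4 cre library nearly met. The log2 fold change was -0.16 (SE 0.13, 95% interval -0.46 to 0.14, edgeR adjusted p = 0.384). Only cyclic loess scaling called it (-0.41, limma-voom adjusted p = 0.0364), of the 14 settings tried. The ratio of Lef1 to Tcf7 counts was 0.247 and 0.276 for WT against 0.217 and 0.172 for Setd2-CD4 cre.

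Foxp1 (ENSMUSG00000030067, chromosome 6, 98925338 to 99522721) measured 108 and 101 CPM in the WT libraries against 153 and 114 CPM in the Setd2-CD4 cre libraries. Replicate 22 carried most of the difference, and replicate 24 lay just above WT. The log2 fold change was 0.36 (SE 0.15, 95% interval 0.01 to 0.71, edgeR adjusted p = 0.107). Without replicate 24 it was 0.56 (adjusted p = 0.000653), and without replicate 22 it was 0.13 (0.334). In each of those fits 1 library stands for the genotype and is assumed to vary like the WT pair. Replicate 22 is also the library with the higher summed B cell markers, and their part in this value was not tested.

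Bach2 (ENSMUSG00000040270, chromosome 4, 32238804 to 32586108) measured 103 and 134 CPM in the WT libraries and 151 CPM in both Setd2-CD4 cre libraries. The spread lay in WT. The log2 fold change was 0.34 (SE 0.14, 95% interval 0.02 to 0.67, edgeR adjusted p = 0.0949), and no setting called it (adjusted p of 0.0674 to 0.582). Summed B cell markers were 789 and 543 CPM in Setd2-CD4 cre 22 and 24, and their part in this value was not tested.

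Satb1 (ENSMUSG00000023927, chromosome 17, 51736187 to 51833290), the chromatin organizer, measured 930.3 and 1066 CPM in the WT libraries against 953 and 928 CPM in the Setd2-CD4 cre libraries. The genotypes overlapped, with a log2 fold change of -0.09 (SE 0.13, 95% interval -0.38 to 0.20, edgeR adjusted p = 0.626). Its sign, like that of Foxo1, varied with the setting (-0.33 to 0.02).

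Ly6c1 (ENSMUSG00000079018, chromosome 15, 75044018 to 75048830) gave 444 and 468 counts in the WT libraries against 109 and 119 in the Setd2-CD4 cre libraries. Scaled, these were 33.9 and 35.6 CPM against 10.6 and 10.9 CPM. The replicates of each genotype were close and the genotypes far apart. Genotype means were 34.7 ± 1.26 against 10.8 ± 0.207 CPM (SD, n = 2 each), which gave a log2 fold change of -1.69 (SE 0.15, 95% interval -2.04 to -1.34, edgeR adjusted p = 0.000935). The call held under all 14 settings (-1.84 to -1.53, adjusted p up to 0.00724). Ly6c2, a near-identical neighbor with which reads may have been shared, gave 37 and 53 counts against 21 and 20 (-0.82, SE 0.38, edgeR adjusted p = 0.130), few beside those of Ly6c1.

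Other cells that carry Ly6c1 were measured beside it. Of 8 monocyte and macrophage markers 4 were tested and none was called by edgeR (0 at an unadjusted p under 0.05, and 0 by DESeq2). The median log2 fold change of those tested was -1.03. Summed levels were 62.8 and 51.9 CPM in WT and 28.8 and 56.1 CPM in Setd2-CD4 cre 22 and 24. Ccr2 held most of these sums (46.8 and 37.1 CPM against 23.1 and 48.7). Lyz2 (4.80 and 7.08 against 0.390 and 3.85) and Itgam (7.70 and 5.63 against 4.97 and 1.28) were lower in both Setd2-CD4 cre libraries, while Csf1r overlapped. With 1 Setd2-CD4 cre library left out up to 2 of the 4 were lower. Their part in the Ly6c1 value was not tested. Of 6 endothelial markers Tie1, Tek and Emcn had no count in any library, Cdh5 and Kdr had 0 to 4 counts, and Pecam1, which T cells also express, was not called. Of 8 markers of CD8 T cells and natural killer cells 6 were tested and 2 rose, the killer cell lectin receptor genes Klrd1 (from 13.5 and 16.1 CPM to 59.1 and 53.5 CPM, edgeR adjusted p = 0.000695) and Klre1 (from 1.75 and 2.13 CPM to 8.09 and 6.23 CPM, 0.00523). Their summed level was 92.9 and 113 CPM in WT against 227 and 122 CPM in Setd2-CD4 cre 22 and 24. Cd8a, the defining marker of CD8 T cells, was not called and measured 35.2 and 50.6 CPM in the WT libraries against 75.3 and 24.8 CPM in the Setd2-CD4 cre libraries. Natural killer cell markers of the list did not rise with these receptors. Ncr1 had 0 and 6 counts in WT against 1 and 0 in Setd2-CD4 cre. Klrb1c had 17 and 5 counts against 6 and 2, and neither passed the filter on low counts. Eomes was not called (2.13 and 2.97 against 2.53 and 1.56 CPM).

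**Figure D2:**
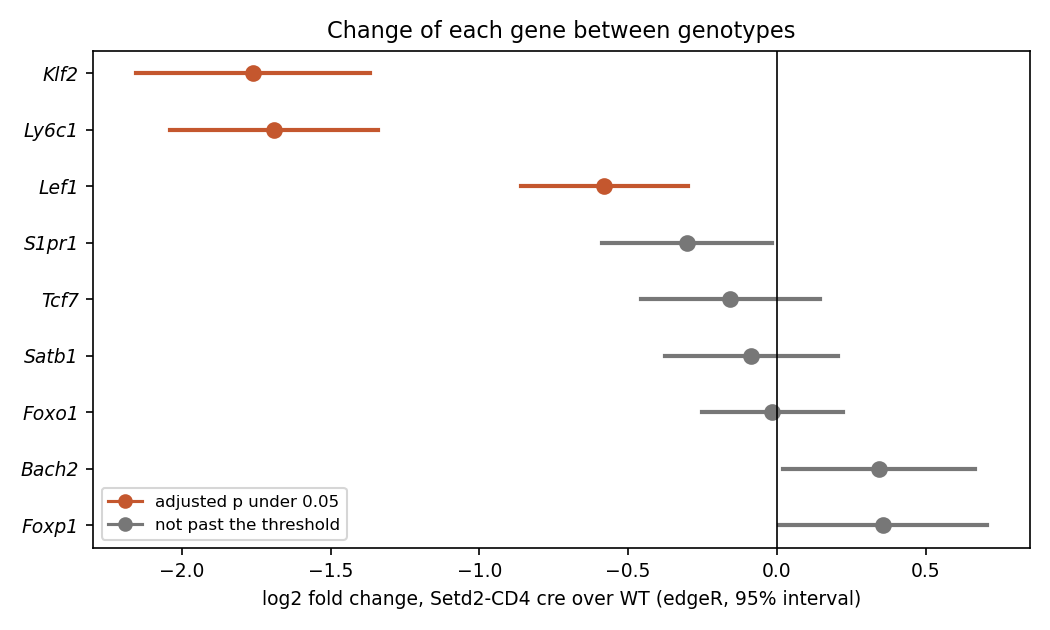
Log2 fold change of each gene, Setd2-CD4 cre over WT (x axis), with its 95% interval from the edgeR fit across all genes; orange marks genes past the threshold and gray those that missed it. Klf2 (-1.76) and Ly6c1 (-1.69) lie apart from Lef1 (-0.58), and the other 6 range from -0.30 to 0.36.

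Of the 9 genes, 7 had no overlap between genotypes, close to the 70.7% of all tested genes of which the same was true. Non-overlap is therefore common in these libraries and was not read as a result for S1pr1, Tcf7, Foxp1 or Bach2.

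Levels of different genes were compared per length, as the deposited FPKM (fragments per kilobase and per 1000000 fragments), which are scaled by library totals and not by TMM factors. In WT the order was Tcf7 (397 ± 34.8), S1pr1 (76.0 ± 8.66), Klf2 (41.6 ± 6.36), Lef1 (37.5 ± 0.398), Satb1 (31.7 ± 3.26), Foxo1 (30.6 ± 0.155), Ly6c1 (11.1 ± 0.479), Bach2 (6.40 ± 1.23) and Foxp1 (4.51 ± 0.174 FPKM; SD, n = 2 each). Klf2 and Lef1 overlapped, as did Satb1 and Foxo1. In Setd2-CD4 cre Klf2 stood sixth (11.1 ± 1.87 FPKM), below Foxo1 (27.2 ± 0.734), Satb1 (26.9 ± 0.109) and Lef1 (22.6 ± 2.46), and Ly6c1 (3.10 ± 0.130 FPKM) stood last, below Foxp1 (5.19 ± 0.960). Foxo1 and Satb1 overlapped there too. Each FPKM rests on 1 length per gene, from 1847 bases for Klf2 to 33133 bases for Satb1, so a gene that is mostly transcribed as a short form is understated.

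The other genes of these pathways were read from lists fixed by symbol. Over the 10 lists 123 of 138 matched genes were tested, of which 25 rose and 22 fell, with a median log2 fold change of -0.02. Over all genes tested, 16.2% rose and 14.5% fell.

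Among the other KLF factors, zinc finger proteins that bind GC-rich sites, 4 of 10 tested rose and 3 fell (median log2 fold change 0.35). Klf6, an early-response factor, rose from 137 and 142 CPM to 279 and 292 CPM (1.04, SE 0.10, edgeR adjusted p = 0.00113). Klf10, a gene induced by TGF-beta, fell from 27.0 and 31.4 CPM to 6.62 and 7.70 CPM (-2.03, SE 0.18, edgeR adjusted p = 0.000939), beside -1.76 for Klf2. Klf9 rose (0.91, edgeR adjusted p = 0.0114) and Klf13 fell (-0.59, 0.00614), and neither call survived leaving out WT 13 or WT 15. Klf3, a repressor of the family, stood at 52.0 ± 10.9 and 50.8 ± 3.64 CPM (-0.03, adjusted p = 0.891).

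Of 17 tested genes of S1P signaling and homing, 2 rose and 3 fell (median -0.09). Ccr7, the chemokine receptor gene for lymph node entry, measured 353 and 331 CPM in the WT libraries against 376 and 367 CPM in the Setd2-CD4 cre libraries (0.12, 95% interval -0.12 to 0.36, edgeR adjusted p = 0.413).

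Sgpl1, which encodes the lyase that breaks S1P down, rose (0.85, SE 0.11, edgeR adjusted p = 0.00191). Cd69, whose protein pulls S1PR1 off the cell surface, rose from 102 and 114 CPM to 168 and 136 CPM (0.49, SE 0.13, edgeR adjusted p = 0.0277). That call was lost under 7 of 14 settings, among them library totals (0.34, adjusted p = 0.0818), which move the median of all genes to -0.16. It was also lost with WT 13 left out (0.42) and with WT 15 left out (0.57). The integrin gene Itgal fell (-0.78, SE 0.16, edgeR adjusted p = 0.0115, and 0.0607 without WT 15). S1pr4, another S1P receptor gene, stood at 42.7 ± 7.69 and 40.1 ± 2.02 CPM (-0.09, edgeR adjusted p = 0.683).

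Of 15 tested TCF/LEF and Wnt pathway genes, 1 rose and 2 fell (median -0.09). Csnk1a1, a kinase gene of the beta-catenin destruction complex, rose (0.63, SE 0.11, edgeR adjusted p = 0.00677), and the beta-catenin coactivator gene Bcl9 fell (-0.76, SE 0.16, 0.0120). Leaving out WT 13 (0.65 and -0.81) or WT 15 (0.61 and -0.71) ended both calls, and fewer of all tested genes were called in those fits. Tcf7l1, a further member of the TCF/LEF family, fell from 4.91 ± 0.274 to 2.23 ± 0.296 CPM (-1.14, edgeR adjusted p = 0.0307), a call lost by DESeq2 (adjusted p = 0.0815), with cyclic loess scaling (limma-voom, 0.0719), without WT 13 (0.172) and without WT 15 (0.145). Tle4, which encodes a corepressor of these factors, missed the threshold (-0.32, edgeR adjusted p = 0.0979). It was called lower under 4 settings, library totals among them (-0.47, 0.0303). These were upper-quartile factors, library totals and both FPKM scales, which place the median of all genes between -0.12 and -0.16.

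Of 21 tested forkhead and PI3K pathway genes, 6 rose and 2 fell (median 0.30). Il7r, which encodes the interleukin 7 receptor and is a known target of FOXO1, rose from 320.1 and 316 CPM to 553 and 596 CPM (0.85, SE 0.11, edgeR adjusted p = 0.00191). Akt1, which encodes the kinase that inactivates FOXO proteins, fell (-0.73, SE 0.12, edgeR adjusted p = 0.00430), and Pik3r1, a PI3K regulatory subunit gene, fell (-0.52, SE 0.12, 0.0135). Sesn3, a FOXO target gene, rose (0.66, SE 0.12, edgeR adjusted p = 0.00598). Without WT 15 the adjusted p-values of Akt1, Pik3r1 and Sesn3 were 0.0584, 0.166 and 0.0616, and without WT 13 those of Pik3r1 and Sesn3 were 0.0630 and 0.0595. Foxo3, a further FOXO gene, stood at 136 ± 9.94 and 142 ± 14.1 CPM (0.06, adjusted p = 0.711).

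Of 10 BACH2 partners and opponents, 1 rose and 2 fell (median 0.08). Bcl6, a repressor gene of follicular helper and memory programs, rose from 44.2 and 31.5 CPM to 107 and 109 CPM (1.51, SE 0.17, edgeR adjusted p = 0.00142). Id2 fell (-0.54, SE 0.12, edgeR adjusted p = 0.0133) and Irf4 fell (-0.44, SE 0.13, 0.0382), and both calls were lost without WT 13 (0.0704 and 0.0763) and without WT 15 (0.149 and 0.357), that of Irf4 also without Setd2-CD4 cre 24 (0.0764). Prdm1, the effector factor gene that BACH2 represses, measured 16.3 and 15.3 CPM in the WT libraries against 16.4 and 27.4 CPM in the Setd2-CD4 cre libraries (0.47, edgeR adjusted p = 0.180). Replicate 22 was level with WT and replicate 24 above it, and without replicate 22 it was called (0.80, 0.00272).

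Of 8 other Ly6 genes tested, 2 rose and 2 fell (median -0.48). Ly6a, the Sca-1 gene, an interferon-responsive marker of activated T cells, fell from 356 and 366 CPM to 165 and 194 CPM (-1.01, SE 0.12, edgeR adjusted p = 0.00148). Ly6e fell (-0.52, SE 0.15, edgeR adjusted p = 0.0345), a call lost without WT 13 (-0.30, 0.322), Setd2-CD4 cre 22 (0.270) or Setd2-CD4 cre 24 (0.192). Ly6d, known from B lineage progenitors, rose from 9 and 5 counts to 52 and 44 (3.07 with an SE of 0.46, edgeR adjusted p = 0.00332), in the libraries in which the summed B cell markers were also higher (266 and 226 against 789 and 543 CPM). The part of those cells was not tested. Ly6m rested on 5 and 2 counts against 23 and 17 (2.78, SE 0.63, edgeR adjusted p = 0.0144), and without WT 15 the call was lost (2.28, 0.113).

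Of 24 tested genes of quiescence and restraint, 6 rose and 3 fell (median 0.21). Cdkn2c, an inhibitor gene of cell cycle kinases, fell from 46.0 and 45.2 CPM to 17.5 and 20.4 CPM (-1.27, SE 0.15, edgeR adjusted p = 0.00146). Bcl2, the survival gene of resting lymphocytes, fell (-0.58, SE 0.11, 0.00795). Cblb, a ubiquitin ligase gene that restrains T cell activation, rose (0.78, SE 0.12, edgeR adjusted p = 0.00343), and Rb1, the retinoblastoma gene, rose (0.64, SE 0.11, 0.00538). Without WT 15 the adjusted p-values of Bcl2, Cblb and Rb1 were 0.103, 0.0524 and 0.0872, and without WT 13 those of Bcl2 and Rb1 were 0.0693 and 0.0686.

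Of 8 tested naive T cell markers, 3 fell and none rose (median -0.51), and edgeR at an unadjusted p under 0.05 and DESeq2 also had 0 higher. Treml2 fell from 723 and 766 CPM to 416 and 391 CPM (-0.88, SE 0.11, edgeR adjusted p = 0.00194). Cd55, which encodes a complement regulator (-0.57, edgeR adjusted p = 0.0137), and the actin-binding gene Actn1 (-0.47, 0.0154) fell, and leaving out WT 13 (0.0658 and 0.151) or WT 15 (0.147 and 0.127) ended both calls. Igfbp4, a binding protein gene for insulin-like growth factors, measured 810.4 and 819 CPM in the WT libraries against 146 and 326 CPM in the Setd2-CD4 cre libraries. Its genotypes lay far apart, but replicates 22 and 24 differed, and it missed the threshold (-1.79, SE 0.44, edgeR adjusted p = 0.0553). It passed under 10 of 14 settings, including DESeq2 (-1.78, adjusted p = 0.00756) and limma-voom (-1.90, 0.00884).

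By likeness of profile over the 4 libraries (the root-mean-square difference of log2(CPM + 0.5), each gene centered on its own mean), the genes nearest to Klf2 included Cntd1 (0.0509) and Fam64a (0.0645). The 3 nearest to Tcf7 were Zbed3 (0.0105), Pisd-ps1 (0.0158) and Pyroxd1 (0.0183). With 4 libraries in 2 groups, likeness to Klf2 mostly restates the difference between the groups. Tcf7 and the 3 genes nearest to it were not called and were each highest in WT 13, so their likeness rests largely on that library.

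Annotated genes overlap 6 of the 9 (all but Klf2, S1pr1 and Ly6c1), and since the strand setting of the counting is not given, reads of overlapping genes may have been shared. Such genes had 16 rows in the deposited data. Of these 11 were tested, 3 rose and 2 fell, and they were selected by position, with their counts in view. All 3 that rose are transcript models inside Satb1 on its own strand, in a gene whose own level was not called. Gm37248 (chromosome 17, 51796017 to 51799190), which starts 34100 bases after the start of Satb1, went from 9 and 5 counts to 78 and 130 (log2 fold change 4.17 with an SE of 0.43, edgeR adjusted p = 0.00122). 5830444F18Rik (51791470 to 51793461), 39829 bases after it, went from 7 and 1 counts to 85 and 95 (4.75 with an SE of 0.54, edgeR adjusted p = 0.00142).

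Neither of these models shares exon bases with Satb1 in GENCODE M21, so they lie in its introns. Both calls held under the 13 settings that gave a value, with adjusted p-values up to 0.00674, and the stricter filter left both genes out. C230085N15Rik, 71669 bases after the start, went from 30 and 33 counts to 41 and 85 (1.30 with an SE of 0.39, edgeR adjusted p = 0.0390), a call lost under 9 settings, DESeq2 among them (adjusted p = 0.0505). The other 2 same-strand models, Gm36931 (0.15, edgeR adjusted p = 0.582) and E430014B02Rik (0.14, 0.662), did not pass. Whether these counts come from separate transcripts or from unspliced Satb1 RNA was not tested.

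**Figure D3:**
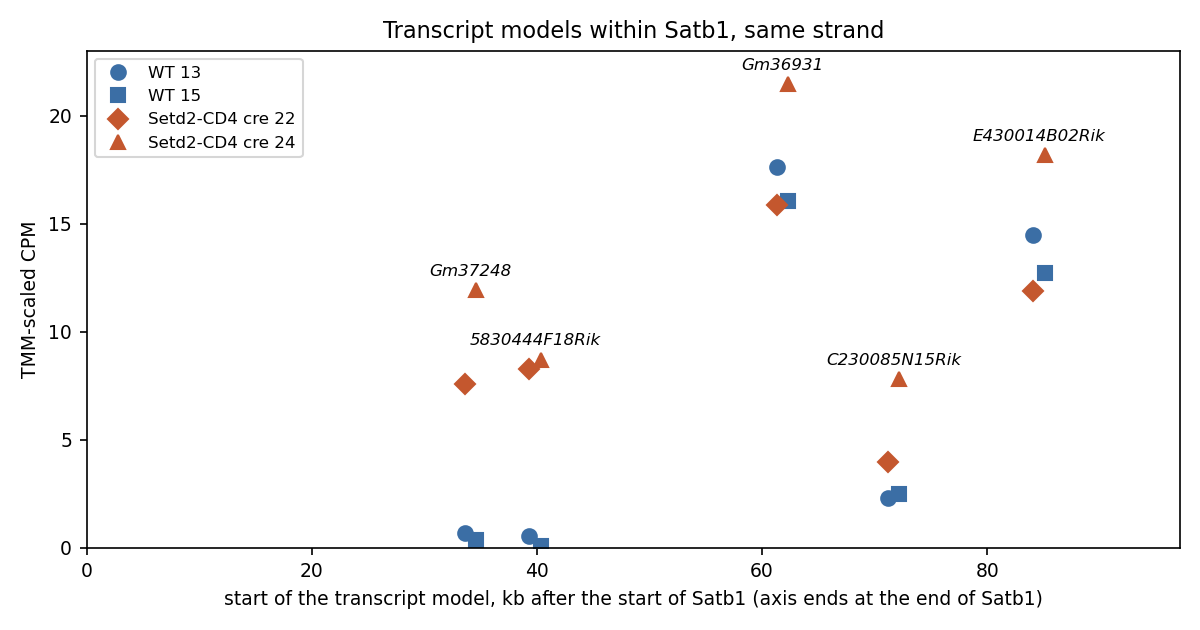
TMM-scaled CPM (y axis) of the 5 transcript models that lie within Satb1 on its strand, by the distance of their start from the start of Satb1 in kb (x axis), in WT (blue) and Setd2-CD4 cre (orange) libraries, offset sideways for clarity. Gm37248 and 5830444F18Rik are near 0 in WT and clearly above it in both Setd2-CD4 cre libraries, while Gm36931 and E430014B02Rik overlap between genotypes.

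The 2 overlapping genes that fell lie on the opposite strand. Gm6934, across the start of Satb1, went from 54 and 51 counts to 11 and 19 (-1.50 with an SE of 0.39, edgeR adjusted p = 0.0238), and A630014C17Rik, within and beyond Tcf7, from 117 and 104 to 54 and 40 (-0.92, SE 0.28, 0.0387). Gm6934 lost its call without WT 13 (adjusted p = 0.120) and without WT 15 (0.113), and A630014C17Rik under 5 settings, including DESeq2 (0.0775). Against the 12201 and 17683 counts of Satb1 and Tcf7 in WT 13, the counts of these neighbors are small. Gm6934 shares 128 exon bases with Satb1, and A630014C17Rik shares 0 with Tcf7. Whether the counts of these neighbors hold reads of Satb1 or Tcf7 was not tested.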

How the data were processed

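RNA sequencing of 4 Th17 libraries was analysed, 2 per genotype, grouped by sample title. Replicate 15 carries another number in its cell type field, and its title was used. The authors deposited whole-number counts per gene and FPKM, per the file headers. The submitters' processing notes name Bowtie2, RSEM, GRCm38.p6 and mm10, with no version or role. The sources used here do not give the strand setting, the handling of multimapped reads or the gene models. The deposited FPKM followed from count, library total and 1 length per gene (largest difference 0.0335% over 50824 values with at least 10 counts).

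Counts were tested with edgeR 4.0.16 in R 4.3.3 (TMM factors, filterByExpr, robust quasi-likelihood fit, Benjamini-Hochberg adjustment over 12927 genes, threshold 0.05). The SE is the log2 fold change divided by the square root of F, and 95% intervals use the fit's degrees of freedom. Alternatives used DESeq2 1.42.0, limma 3.58.1, other scalings and filters, and each library left out. Leaving out either WT library lowered the number of calls over all genes, so a call lost that way is not particular to its gene. Replicates differed by more than counting noise (chi-square per degree of freedom 8.27 in WT, 17.4 in Setd2-CD4 cre). The labels do not say that libraries came from separate animals or cultures, so the spread behind each p-value is that of these samples and may be technical. The 9 genes and the lists were chosen with earlier results of these data known. Named genes are the 9, Setd2, Ccr7, Il7r, Cd69, S1pr4, Klf3, Klf6, Prdm1, Foxo3, Ly6c2, Ly6a, up to 4 genes of each list with the smallest p, the nearest profiles to Klf2 and Tcf7, and markers of cell types; other genes were named after their values were seen. Some genes that the rule takes are not reported here, though counts over the lists include them. Of 139 pathway symbols 138 matched, 3 through a synonym. Coordinates are those of the deposited table, equal to GENCODE M21 for all 9 genes.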

Additional observations from a re-analysis of the deposited data

How the results depend on the processing

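Over 14 alternatives (4 scalings, of which cyclic loess was tested by limma-voom, 4 other tools or units, 2 filters and each of 4 libraries left out), the 9 genes gave 126 values. Of these 116 stayed on the same side of the threshold, 2 lost a call (Lef1), 8 gained one and none reversed. The number lower was 5 with cyclic loess scaling (Tcf7 and S1pr1 added), and the number higher ranged from 0 to 1 with 1 library left out. With cyclic loess scaling 1651 of the 12927 genes tested were lower, against 1880 by edgeR with TMM factors. Over all genes 2879 were lower with library totals, and 1267 and 1269 were higher by limma-trend on log2(FPKM + 1) and log2(FPKM + 0.1). Of the genes in the lists 16 were higher with library totals, and 16 and 15 on the same FPKM scales. With 1 library left out, calls ranged from 631 to 2943 higher and 473 to 2763 lower over all genes, and from 7 to 35 higher and 6 to 26 lower over the lists; the lowest counts came without WT 15. Of 584 values for the 42 genes that the rule took from the lists, 522 kept their call, 46 lost it, 16 gained one and none reversed. No paired analysis was possible because the genotypes share no replicate number. Ly6m, Ly6d and the models within Satb1 rest on few counts in WT.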

Other observations

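Of 10 T cell activation markers tested, 3 rose and 2 fell, with a median log2 fold change of 0.25. Cd38, which encodes an enzyme of NAD breakdown, rose (1.58, SE 0.20, edgeR adjusted p = 0.00228) and is also expressed by B cells, whose summed markers were higher in the same libraries (266 and 226 against 789 and 543 CPM). Slc3a2, the heavy chain gene of amino acid carriers, rose from 121 ± 14.2 to 281 ± 57.9 CPM (1.22 with an SE of 0.16, edgeR adjusted p = 0.00256). The costimulatory receptor gene Icos rose (0.85, SE 0.17, edgeR adjusted p = 0.00931, 0.0525 without WT 13 and 0.0794 without WT 15), while Il2ra, the interleukin 2 receptor alpha chain gene, fell from 965 ± 113 to 621 ± 15.3 CPM (-0.64 with an SE of 0.13, edgeR adjusted p = 0.00982, and 0.144 without WT 15).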
